A study of Mus musculus with 9 samples.

Results

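The genes described here are 42 genes of autophagy, the process by which a cell encloses part of its own content in a double membrane and delivers it to the lysosome. They were chosen by name, as the entries of a deposited expression table of 53715 gene IDs whose symbol equalled a listed member. The list holds 5 genes of initiation, 6 of nucleation, 6 of membrane supply, 8 conjugation enzymes, 5 ATG8 family genes, 5 soluble cargo receptors, 2 mitophagy receptors, 1 tethering and 1 extraction factor, and 3 genes of FOXO control. All 42 were found. RNA was sequenced in primary myoblasts, the precursors that form muscle fibres by fusion, taken at passage 1 from mice of the strain C57BL/10ScSn-Dmdmdx/J. Cells of both groups therefore carried the mdx mutation of the dystrophin gene, and no library came from cells without it. One group was given 0.2 mM glycine (n = 3 libraries) and the other 0.8 mM glycine (n = 6 libraries). Whether libraries of a group were grown from separate cultures or mice is not stated in the labels, so a p-value here reflects only how these libraries varied, and that variation may be technical. The library names fall into 2 numbered sets, each with a single glycine level, and any batch difference between the sets cannot be told apart from glycine.

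Autophagy starts when the ULK1 kinase complex is switched on, as happens when amino acids are short, and a lipid kinase complex around Beclin 1 then marks the membrane that will grow. Conjugation enzymes attach small ATG8 proteins of the LC3 and GABARAP families to that membrane, and cargo receptors such as p62 hold ubiquitin-tagged cargo with one part and ATG8 with another. FOXO transcription factors are known in muscle for switching on genes of autophagy and of the ubiquitin ligases of muscle wasting. RNA levels do not report the flux through autophagy, which depends on how proteins are modified and degraded.

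Promoters of 6 of the 10 genes that passed the test are shown because they span the roles and both directions of change. Each runs from 250 bases before to 50 bases after the transcription start, 5′ to 3′ on the gene's strand, as given by RefSeq on GRCm38.p6, where 34 of the 42 genes had an entry. Capitals mark matches to any of 5 motifs, searched on both strands. They were TGATGNAA, the core of the amino acid response element read by ATF4 and CHOP, CACGTG, the E-box at the centre of the CLEAR element of TFEB, GTAAACA, a FOXO site, TGACNNNGC, the core of the antioxidant response element read by NRF2, and TATAAA, known as the TATA box. The promoter of Sqstm1 lies at chr11:50210771-50211070 on the minus strand, that of Gabarapl1 at chr6:129532942-129533241 on the plus strand and that of Map1lc3b at chr8:121590188-121590487 on the plus strand. Atg3 has its promoter at chr16:45158579-45158878 on the plus strand, Wipi1 at chr11:109611340-109611639 on the minus strand and Vcp at chr4:43000458-43000757 on the minus strand.
Sqstm1: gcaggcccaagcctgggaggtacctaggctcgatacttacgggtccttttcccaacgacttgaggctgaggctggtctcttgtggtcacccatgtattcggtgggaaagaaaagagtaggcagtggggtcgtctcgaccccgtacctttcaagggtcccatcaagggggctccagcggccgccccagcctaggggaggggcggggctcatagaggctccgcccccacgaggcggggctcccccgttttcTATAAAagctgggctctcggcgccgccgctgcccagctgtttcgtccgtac
Gabarapl1: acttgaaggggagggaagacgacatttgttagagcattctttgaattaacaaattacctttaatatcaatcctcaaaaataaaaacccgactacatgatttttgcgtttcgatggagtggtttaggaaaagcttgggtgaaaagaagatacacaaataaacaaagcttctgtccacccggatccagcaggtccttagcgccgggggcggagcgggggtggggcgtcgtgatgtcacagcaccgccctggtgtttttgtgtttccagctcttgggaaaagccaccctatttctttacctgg
Map1lc3b: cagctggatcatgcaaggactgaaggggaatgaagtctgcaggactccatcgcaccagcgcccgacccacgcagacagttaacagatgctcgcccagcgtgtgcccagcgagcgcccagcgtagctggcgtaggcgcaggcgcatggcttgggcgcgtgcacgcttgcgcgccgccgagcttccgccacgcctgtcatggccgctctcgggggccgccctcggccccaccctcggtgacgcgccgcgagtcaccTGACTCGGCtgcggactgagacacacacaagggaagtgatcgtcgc
Atg3: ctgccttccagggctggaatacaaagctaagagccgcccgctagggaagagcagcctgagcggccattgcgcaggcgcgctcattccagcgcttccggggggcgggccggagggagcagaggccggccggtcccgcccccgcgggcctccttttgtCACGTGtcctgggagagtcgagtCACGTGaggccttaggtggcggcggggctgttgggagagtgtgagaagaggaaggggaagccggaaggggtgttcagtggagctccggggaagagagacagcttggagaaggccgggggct
Wipi1: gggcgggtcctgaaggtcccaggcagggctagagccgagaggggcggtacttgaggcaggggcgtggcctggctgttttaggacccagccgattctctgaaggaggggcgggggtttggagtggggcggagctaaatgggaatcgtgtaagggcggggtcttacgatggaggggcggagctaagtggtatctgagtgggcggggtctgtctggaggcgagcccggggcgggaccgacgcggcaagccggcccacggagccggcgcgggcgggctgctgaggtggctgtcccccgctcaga
Vcp: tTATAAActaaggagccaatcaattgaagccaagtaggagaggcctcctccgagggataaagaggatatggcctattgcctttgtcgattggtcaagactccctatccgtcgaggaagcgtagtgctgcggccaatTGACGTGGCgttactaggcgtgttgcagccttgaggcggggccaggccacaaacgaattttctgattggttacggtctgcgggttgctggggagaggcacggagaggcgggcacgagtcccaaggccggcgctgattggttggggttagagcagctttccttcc
In the Sqstm1 window the only match was TATAAA, whose first base lies at -1, with the annotated start base counted as 0. Atg3 held CACGTG at -94 and at -71. Map1lc3b held TGACTCGGC at 4 and Vcp held TGACGTGGC at -114 and TATAAA at -249. The windows of Gabarapl1 and Wipi1 held no match. Over all 38 promoter entries of the 34 genes, TGATGNAA and GTAAACA matched in 0, beside 3.97% and 3.65% of all 32851 promoters. Only exact letters were counted, so ATAAACA in the Gabarapl1 window, which differs from GTAAACA in its first base, was not a match. The 8 genes without an entry were not searched: Rb1cc1, Becn1, Pik3c3, Atg12, Atg16l1, Map1lc3a, Bnip3l and the FOXO target Fbxo32. CACGTG matched in 4 entries (10.5%, beside 7.15% of all promoters), those of Atg3, Atg5, Atg7 and Atg14. TGACNNNGC matched in 8 entries (21.1%, beside 12.4%), of Atg13, Map1lc3b, Tax1bp1, Ulk2, Vcp and Vmp1. These are 6 of the 34 genes, as Vmp1 has several entries with a match and was counted more than once. TATAAA matched in 2 (5.26%, beside 13.6%). A match is a description of these letters only, and no binding was measured.

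Values are TPM, a measure of transcript abundance corrected for transcript length and scaled to a common sum in every library. TPM keep no read numbers, so the depth behind a value is unknown and the precision was taken from the spread between libraries. Between 8979 and 9243 genes reached 1 TPM at 0.2 mM and between 9321 and 9457 at 0.8 mM, and no 2 libraries held identical values. Defining muscle genes were present: Myod1, Myog and Des had means of 35.7, 247 and 104 TPM at 0.2 mM. The summed TPM of 12 myocyte and myotube markers ran from 3463 to 4013 at 0.2 mM and from 9795 to 11630 at 0.8 mM. All 12 rose, beside 16.7% of all genes tested. Among them Myh8 was at most 0.878 TPM at 0.2 mM, so it was tested only through its values at 0.8 mM. Of 12 macrophage markers 10 averaged 1 TPM or more, and the list summed to 808 to 887 TPM at 0.2 mM and 997 to 1383 TPM at 0.8 mM. Most of that sum was Lyz2, with means of 588 and 1013 TPM beside mean sums of 835 and 1169 TPM. Of the 10 tested macrophage markers 3 rose and 1, Cd68, fell from 182 to 57.6 TPM. Of those that rose, Itgam was at most 0.7785 TPM at 0.2 mM, so it was tested only through its values at 0.8 mM. Sums of 10 fibroblast markers overlapped between the groups (2002 to 2439 and 1910 to 2482 TPM), with 9 of 10 averaging 1 TPM or more and Tcf21 at 0 in every library, though 6 of the 9 tested rose. Most of the fibroblast sum was Dcn, which did not pass, with means of 1878 and 1689 TPM beside mean sums of 2194 and 2232 TPM. Sums of 10 myoblast markers ran from 177 to 219 TPM at 0.2 mM and from 460.4 to 558 TPM at 0.8 mM, and Pax7 was near 1 TPM. Des was the largest part of the myoblast sum, with means of 104 and 356 TPM beside mean sums of 193 and 517 TPM. Endothelial, pericyte and Schwann cell markers were scarce, with sums of at most 30.5, 3.77 and 5.27 TPM in any library. The part of these cell types in the results below was not tested. In such bulk RNA, fewer cells of a type and less RNA per cell cannot be told apart.

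Across the autophagy genes, 8 fell and 2 rose from 0.2 to 0.8 mM glycine, led by the cargo receptor gene Sqstm1. Those that fell were Sqstm1, Optn, Gabarapl1, Map1lc3b, Atg12, Atg10, Atg3 and Vmp1, and those that rose were Wipi1 and Vcp. Falls were found among the ATG8 genes, the conjugation enzymes, the cargo receptors and membrane supply, and no gene of initiation or nucleation passed. Differences are log2 fold changes computed on TPM + 1, positive where 0.8 mM was higher, a scale that understates the change of genes with low TPM. A gene passed at a limma adjusted p under 0.05, with adjustment over the 10049 genes that reached 1 TPM in at least 3 libraries. Of the 42 genes 39 were tested, and Ambra1, Atg2a and Foxo1 were below that level. The share that passed, 25.6% of 39, was close to the 26.6% of all genes tested. By direction, 20.5% of the tested autophagy genes fell, beside 9.81% of all genes, and 5.13% rose, beside 16.7% of all genes. The median log2 fold change was -0.12 over the autophagy genes and 0.06 over all genes tested. Without overlap between the groups, 9 autophagy genes were lower and 2 higher, beside 10.6% and 17.6% of all genes. Scaling by median ratios raised the number of genes that fell from 8 to 12, adding Atg101, Gabarap, Map1lc3a and Tax1bp1. That scaling also moved the share of rises among the calls over all genes from 63.1% to 52.6%, and quantile normalization moved it to 49.8%.

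**Figure D1:**
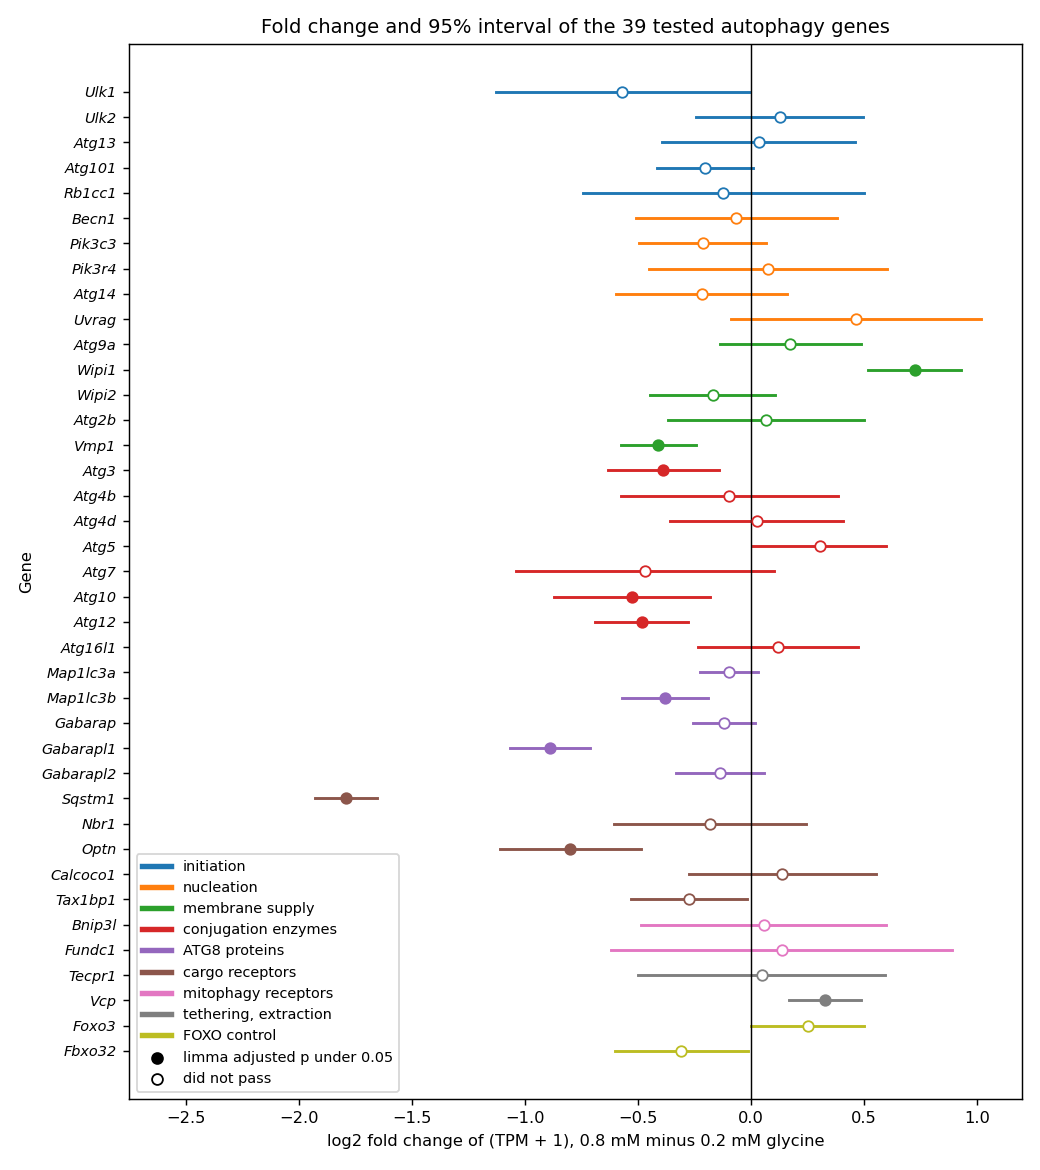
Each point is 1 of the 39 tested autophagy genes at its log2 fold change on TPM + 1 (positive: higher at 0.8 mM), with its 95% interval as a line, coloured by role; filled points passed at a limma adjusted p under 0.05. Sqstm1 at -1.79 lies farthest from 0, and Wipi1 at 0.72 is the highest of the 39.

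Among the soluble cargo receptors, 2 of 5 fell (40%, beside 9.81% of all genes tested) and 3 did not pass. Sqstm1 encodes p62, which binds ubiquitin chains, gathers cargo into condensates and is itself degraded with them. It was at 312, 309 and 307 TPM in the 3 libraries at 0.2 mM, and ran from 84.4 through a median of 85.4 to 96.2 TPM in the 6 at 0.8 mM. The groups lay far apart, and the spread within each was small beside the gap between them. The mean went from 309 ± 2.42 (SD, n = 3) to 88.7 ± 5.66 TPM (SD, n = 6), a ratio of 3.49 between 0.2 and 0.8 mM. Its log2 fold change was -1.79 ± 0.06 (SE, 95% interval -1.93 to -1.66, limma adjusted p = 1.53e-08). On that scale, which understates the change of genes with low TPM, the fall ranked 28 by size among 10049 genes. Sqstm1 lies on chromosome 11 from 50199366 to 50210827 on the minus strand. Its exons overlap those of Mrnip on the opposite strand, which was at 0.873 ± 0.437 and 0.921 ± 0.510 TPM.

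Optn encodes optineurin, a receptor for damaged mitochondria and bacteria. It was at 2.05, 2.83 and 2.15 TPM at 0.2 mM and ran from 0.725 through 0.918 to 1.16 TPM at 0.8 mM. The groups did not overlap, though all values were low. At 0.8 mM fewer than 3 libraries reached 1 TPM, so Optn was tested only through its values at 0.2 mM. The log2 fold change was -0.80 ± 0.14 (SE, limma adjusted p = 0.00157), on chromosome 2 from 5020642 to 5064051.

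Of the receptors that did not pass, Tax1bp1, which like p62 binds ubiquitin, had the lowest p. It was at 19.0, 18.4 and 14.9 TPM at 0.2 mM and from 12.4 through 13.8 to 16.3 TPM at 0.8 mM, and the groups overlapped. The difference on the log2 scale was -0.28 (95% interval -0.53 to -0.02, limma adjusted p = 0.107). Nbr1, a receptor built like p62, had means of 17.7 ± 2.18 and 15.9 ± 4.37 TPM (limma adjusted p = 0.545). Calcoco1, a receptor of the endoplasmic reticulum and Golgi, had 13.7 ± 2.24 and 15.4 ± 4.17 TPM (limma adjusted p = 0.644).

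Sqstm1 made up 85.0% to 86.3% of the summed TPM of the 5 cargo receptor genes at 0.2 mM and 56.9% to 70.2% at 0.8 mM. The sum itself ran from 356 to 363 TPM at 0.2 mM and from 128 to 148 TPM at 0.8 mM. Without Sqstm1 the other 4 receptors summed to 48.9 to 54.5 TPM and 40.7 to 63.9 TPM, and the groups overlapped. The difference in receptor RNA between the glycine levels was therefore nearly all in 1 gene. Relative to LC3B, Sqstm1 stood at 3.84 to 4.94 times the TPM of Map1lc3b at 0.2 mM and at 1.56 to 1.78 times at 0.8 mM. Macrophages also express Sqstm1, and beside its fall Cd68, which encodes a lysosomal glycoprotein of macrophages, fell from 182 ± 13.6 to 57.6 ± 2.38 TPM, while Lyz2 rose from 588 ± 30.6 to 1013 ± 153 TPM and Cd14 from 24.5 ± 1.04 to 59.8 ± 10.4 TPM. Over the macrophage list 3 of 10 tested genes rose and 1 fell (30% and 10%, beside 16.7% and 9.81% of all genes tested). One of the rises, Itgam, was tested only through its values at 0.8 mM. The part of macrophages in the Sqstm1 result was not tested.

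**Figure D2:**
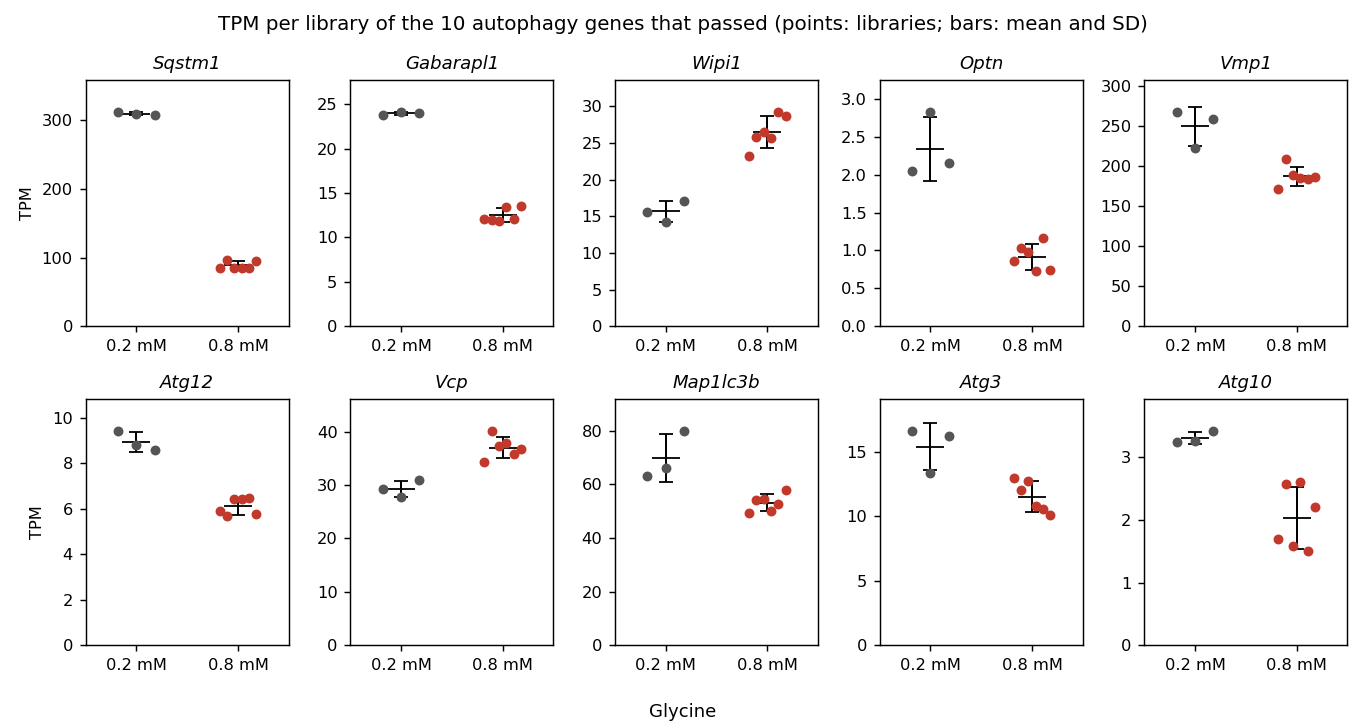
Points are the TPM of single libraries at 0.2 mM (3 libraries) and 0.8 mM glycine (6 libraries) for the 10 autophagy genes that passed, on axes from 0, with bars for the mean and SD. In all 10 panels the groups do not overlap, and only Wipi1 and Vcp are higher at 0.8 mM.

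All 5 tested ATG8 genes had a negative fold change, beside 4409 of all 10049 genes tested. Of the 5, 2 passed, Gabarapl1 and Map1lc3b (40% fell, beside 9.81% of all genes tested). ATG8 proteins are the ubiquitin-like proteins that are joined to lipid in the growing membrane and to which receptors bind. Gabarapl1, a GABARAP family gene, was at 23.8, 24.1 and 24.0 TPM at 0.2 mM and ran from 11.9 through 12.0 to 13.5 TPM at 0.8 mM. Both groups were tight and far apart. The log2 fold change was -0.89 ± 0.08 (SE, limma adjusted p = 1.28e-05), a ratio of means of 1.92. The gene lies on chromosome 6 from 129533160 to 129542346. A transcript on its opposite strand, 1700101I11Rik, reached at most 0.293 TPM.

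Map1lc3b encodes LC3B, the ATG8 protein most often used to count autophagosomes. It was at 63.2, 66.0 and 80.0 TPM at 0.2 mM and from 49.4 through 53.3 to 58.0 TPM at 0.8 mM. The groups did not overlap, but the library labelled replicate 3 at 0.2 mM stood above the other 2 of its group. The difference was, on the log2 scale, -0.38 ± 0.09 (SE, limma adjusted p = 0.00698), on chromosome 8 from 121590361 to 121598760.

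The other 3 ATG8 genes did not pass, and their intervals bound the difference closely. Gabarap, the most abundant of the family, was at 224, 244 and 243 TPM at 0.2 mM and from 200.1 through 219 to 234 TPM at 0.8 mM. Its log2 fold change was -0.12 ± 0.06 (SE, 95% interval -0.26 to 0.02, limma adjusted p = 0.187). Map1lc3a, which encodes LC3A, had 112, 114 and 126 TPM at 0.2 mM and 105 through 109 to 115 TPM at 0.8 mM, with a 95% interval of -0.23 to 0.03. Gabarapl2, also known as GATE-16, had 33.7, 37.3 and 39.4 TPM at 0.2 mM and 29.3 through 33.4 to 36.6 TPM at 0.8 mM, with a 95% interval of -0.33 to 0.06. For each of these 3 genes the groups overlapped. Gabarap and Map1lc3a passed under median-ratio scaling and under quantile normalization.

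Summed over the 5 genes, ATG8 RNA was 457, 485 and 512 TPM at 0.2 mM and ran from 410.2 through 423 to 452 TPM at 0.8 mM, so the highest library at 0.8 mM lay just under the lowest at 0.2 mM. Within the sum, Gabarapl1 held 4.69% to 5.20% at 0.2 mM and 2.62% to 3.29% at 0.8 mM. Gabarap held 48.9 ± 1.49% and 51.1 ± 1.69%, with overlap between the groups. The ratio of Gabarapl2 to Gabarapl1, 2 genes of the same branch, was 1.42 to 1.64 at 0.2 mM and 2.43 to 3.08 at 0.8 mM. Map1lc3a held 24.2 ± 0.676% at 0.2 mM and 25.7 ± 0.727% at 0.8 mM, without overlap, and Map1lc3b held 14.4 ± 1.097% and 12.5 ± 0.692%, with overlap. Between the groups, then, the share of Gabarapl1 was lower and that of Map1lc3a higher in every library at 0.8 mM.

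**Figure D3:**
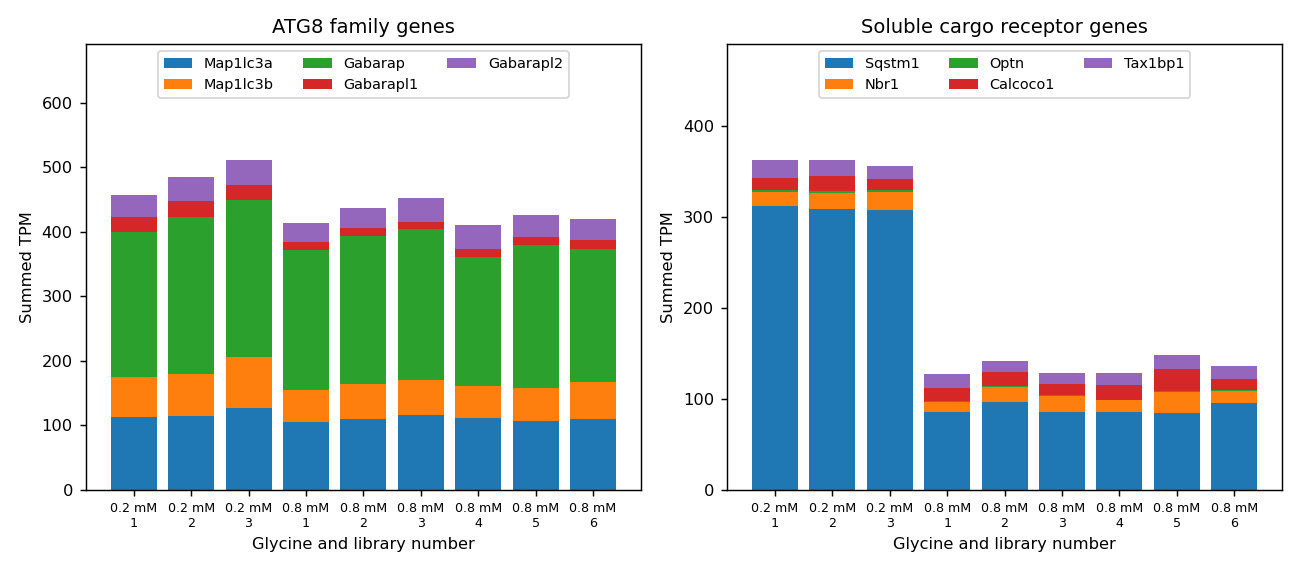
Each bar is 1 library, with the summed TPM of the 5 ATG8 genes (left) and of the 5 soluble cargo receptor genes (right) stacked by gene. ATG8 sums run from 410.2 to 512 TPM, while receptor sums stand at 356 to 363 TPM at 0.2 mM and at 128 to 148 TPM at 0.8 mM, where the Sqstm1 block is shorter.

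Of the 8 conjugation enzymes, 3 fell (37.5%, beside 9.81% of all genes tested) and 5 did not pass. Atg12 is the ubiquitin-like protein that is joined to ATG5, Atg10 is the E2-like enzyme of that step, and Atg3 is the E2-like enzyme that passes ATG8 to lipid. Atg12, on chromosome 18 from 46730144 to 46741580, was at 9.42, 8.79 and 8.56 TPM at 0.2 mM and from 5.66 through 6.15 to 6.45 TPM at 0.8 mM. The groups did not overlap, and the log2 fold change was -0.48 ± 0.09 (SE, limma adjusted p = 0.00273). Atg3, on chromosome 16 from 45158785 to 45188538, was at 16.6, 13.3 and 16.2 TPM at 0.2 mM and from 10.1 through 11.4 to 12.9 TPM at 0.8 mM. The lowest library at 0.2 mM lay just above the highest at 0.8 mM. The Atg3 log2 fold change was -0.39 ± 0.11 (SE, limma adjusted p = 0.0252), and the adjusted p was 0.108 without replicate 1 and 0.0925 without replicate 3 at 0.2 mM.

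Atg10 was at 3.24, 3.27 and 3.42 TPM at 0.2 mM and from 1.496 through 1.96 to 2.60 TPM at 0.8 mM. All 3 libraries at 0.2 mM were above all 6 at 0.8 mM, where the spread was wider. The log2 fold change was -0.53 ± 0.16 (SE, limma adjusted p = 0.0297), on chromosome 13 from 90935356 to 91223968. This call rested on single libraries: it did not pass without replicate 1, 2 or 3 at 0.2 mM (limma adjusted p = 0.077, 0.0799 and 0.0905) or without replicate 1, 3 or 5 at 0.8 mM (0.0519, 0.0539 and 0.0506). With no filter on low values, which adjusts over more genes, Atg10 did not pass either (0.0622).

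Atg5, the partner to which ATG12 is joined, leaned the other way. It was at 17.9, 18.2 and 24.0 TPM at 0.2 mM and from 20.1 through 24.0 to 30.2 TPM at 0.8 mM, with overlap. Its log2 fold change was 0.30 ± 0.13 (SE, 95% interval 0.01 to 0.60, limma adjusted p = 0.124), and it passed without replicate 3 at 0.2 mM (0.0484). The ratio of Atg5 to Atg12 TPM was 1.90 to 2.81 at 0.2 mM and 3.41 to 4.78 at 0.8 mM, without overlap. Atg7, the E1-like enzyme that activates both ATG12 and ATG8, had 2.85, 1.87 and 3.25 TPM at 0.2 mM and 0.926 through 1.49 to 3.28 TPM at 0.8 mM (limma adjusted p = 0.217). Atg16l1, which places the ATG12-ATG5 pair on the membrane, had means of 1.21 and 1.39 TPM (limma adjusted p = 0.641). The cysteine proteases Atg4b and Atg4d, which trim ATG8 and later free it from lipid, had fold changes of -0.10 and 0.02.

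No gene of the initiation complex passed, beside 26.6% of all genes tested. An unadjusted limma p under 0.05 was found for 1 of 5, beside 3782 of all 10049 genes tested. That gene was Ulk1, which encodes the kinase. It was at 2.21, 0.842 and 2.92 TPM at 0.2 mM and from 0.635 through 0.841 to 1.85 TPM at 0.8 mM. The groups overlapped through replicate 2 at 0.2 mM, which was as low as most libraries at 0.8 mM. Its log2 fold change was -0.57 ± 0.25 (SE, 95% interval -1.13 to -0.01, limma adjusted p = 0.127), and without that library Ulk1 passed (0.0223).

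Atg101, a small subunit that stabilises ATG13, was the most abundant gene of the complex, at 16.8, 18.5 and 22.6 TPM at 0.2 mM and 15.9 through 16.4 to 17.6 TPM at 0.8 mM. Its 95% interval ran from -0.42 to 0.01 (limma adjusted p = 0.152). Atg101 did pass under median-ratio scaling (0.0474) and under quantile normalization (0.03855). Ulk2, a kinase gene related to Ulk1, had means of 0.846 and 1.03 TPM (limma adjusted p = 0.632). Atg13, the regulatory subunit, had 2.01 and 2.11 TPM (0.924), and Rb1cc1, the scaffold FIP200, had 4.25 ± 2.55 and 3.57 ± 1.11 TPM (0.793). Intervals of Ulk1 and Rb1cc1 were wide, and the log2 fold change of Gabarapl1, -0.89, lies inside the interval of Ulk1. That scale understates the change of the scarcer Ulk1. Its ratio of means between 0.2 and 0.8 mM was 2.08, beside 1.92 for Gabarapl1.

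In the nucleation complex 0 of 5 tested genes passed limma, and 0 had an unadjusted p under 0.05, beside 2669 and 3782 of all 10049 genes tested. Uvrag, a subunit of the Beclin 1 complex on endosomes, had the largest difference. It was at 2.03, 3.93 and 4.47 TPM at 0.2 mM and from 2.69 through 5.43 to 6.62 TPM at 0.8 mM, with overlap, and its log2 fold change was 0.46 (95% interval -0.09 to 1.02, limma adjusted p = 0.208). Becn1, which encodes Beclin 1, had 20.9 ± 5.27 and 19.9 ± 4.59 TPM (95% interval -0.51 to 0.38). The kinase gene Pik3c3, also known as VPS34, had 1.82 ± 0.252 and 1.43 ± 0.173 TPM (limma adjusted p = 0.252). Its regulatory subunit Pik3r4 had 1.31 and 1.49 TPM (0.857), and Atg14, which directs the complex to autophagy, had 1.06 and 0.764 TPM (0.389). Ambra1, a Beclin 1 partner, was under the level tested, at 0.669 ± 0.174 and 0.641 ± 0.0975 TPM.

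Among the genes of membrane supply, 1 of 5 tested rose and 1 fell (20% each, beside 16.7% and 9.81% of all genes tested). Wipi1 encodes a protein that reads the lipid made by the Beclin 1 complex. It was at 15.6, 14.2 and 17.1 TPM at 0.2 mM and from 23.2 through 26.2 to 29.2 TPM at 0.8 mM. All 6 libraries at 0.8 mM were higher than all 3 at 0.2 mM. The mean went from 15.7 ± 1.44 to 26.5 ± 2.21 TPM and the log2 fold change was 0.72 ± 0.09 (SE, limma adjusted p = 0.000196), on chromosome 11 from 109573331 to 109611967. Wipi2, its close relative, had a negative fold change: it was at 4.89, 4.91 and 5.31 TPM at 0.2 mM and from 3.52 through 4.55 to 5.07 TPM at 0.8 mM (95% interval -0.45 to 0.10). The difference between the fold changes of Wipi1 and Wipi2 was not tested. Beside the rise of Wipi1, the summed myotube markers were higher by the amounts given above, and their part in it was not tested.

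Vmp1 encodes a membrane protein of the endoplasmic reticulum that moves lipids to the growing membrane. It ranked next to the top among the 42 genes, at 268, 223 and 259 TPM at 0.2 mM and from 171 through 186 to 209 TPM at 0.8 mM. The groups did not overlap, and the log2 fold change was -0.41 ± 0.07 (SE, limma adjusted p = 0.00193). Vmp1 lies on chromosome 11 from 86583865 to 86683836 and its annotated exons overlap the microRNA gene Mir21a on the same strand, which was listed at 0 TPM in every library. Atg9a, the only membrane-spanning ATG protein of the core set, had means of 2.65 and 3.15 TPM (limma adjusted p = 0.411). Of the lipid transfer genes, Atg2b had 1.54 and 1.61 TPM (0.842) and Atg2a was under the level tested, at 1.00 ± 0.298 and 0.677 ± 0.216 TPM.

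Neither mitophagy receptor passed. Bnip3l, which encodes NIX, was at 21.6, 33.3 and 44.3 TPM at 0.2 mM and from 26.1 through 30.5 to 51.8 TPM at 0.8 mM, so the libraries of each group spread about as widely as all 9. Fundc1 had 5.14 ± 0.710 and 6.30 ± 3.05 TPM, with a 95% interval of -0.62 to 0.89, the least precise of the 39 tested genes. Vcp encodes the ATPase p97, which pulls ubiquitin-tagged proteins out of membranes and complexes. It was at 29.2, 27.8 and 30.9 TPM at 0.2 mM and from 34.3 through 37.0 to 40.2 TPM at 0.8 mM. The groups did not overlap, and the log2 fold change was 0.33 ± 0.07 (SE, limma adjusted p = 0.00609), on chromosome 4 from 42979963 to 43000507. A copy, Vcp-rs, matched 73.0% of its transcript at 99.0% identity and was at 0 TPM in all libraries. Tecpr1, a tethering factor between autophagosome and lysosome, had means of 1.04 and 1.17 TPM (limma adjusted p = 0.918).

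The FOXO genes were low or did not pass. Foxo1 was the lowest of the 42 genes at both glycine levels, at 0.450, 0.529 and 0.299 TPM at 0.2 mM and 0.341 through 0.467 to 0.590 TPM at 0.8 mM, under the level tested. Foxo3 was at 5.95, 4.63 and 6.02 TPM at 0.2 mM and from 5.93 through 6.68 to 7.34 TPM at 0.8 mM. The groups overlapped, and its log2 fold change was 0.25 ± 0.11 (SE, 95% interval 0.00055 to 0.50, limma adjusted p = 0.132). Fbxo32 encodes atrogin-1, a muscle ubiquitin ligase and known FOXO target. It was at 1.62, 1.70 and 1.70 TPM at 0.2 mM and from 0.988 through 1.08 to 1.61 TPM at 0.8 mM. The groups did not overlap, but only by a narrow gap set by replicate 5 at 0.8 mM, and the log2 fold change of -0.31 ± 0.13 (SE, 95% interval -0.60 to -0.02, limma adjusted p = 0.115) did not pass.

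**Figure D4:**
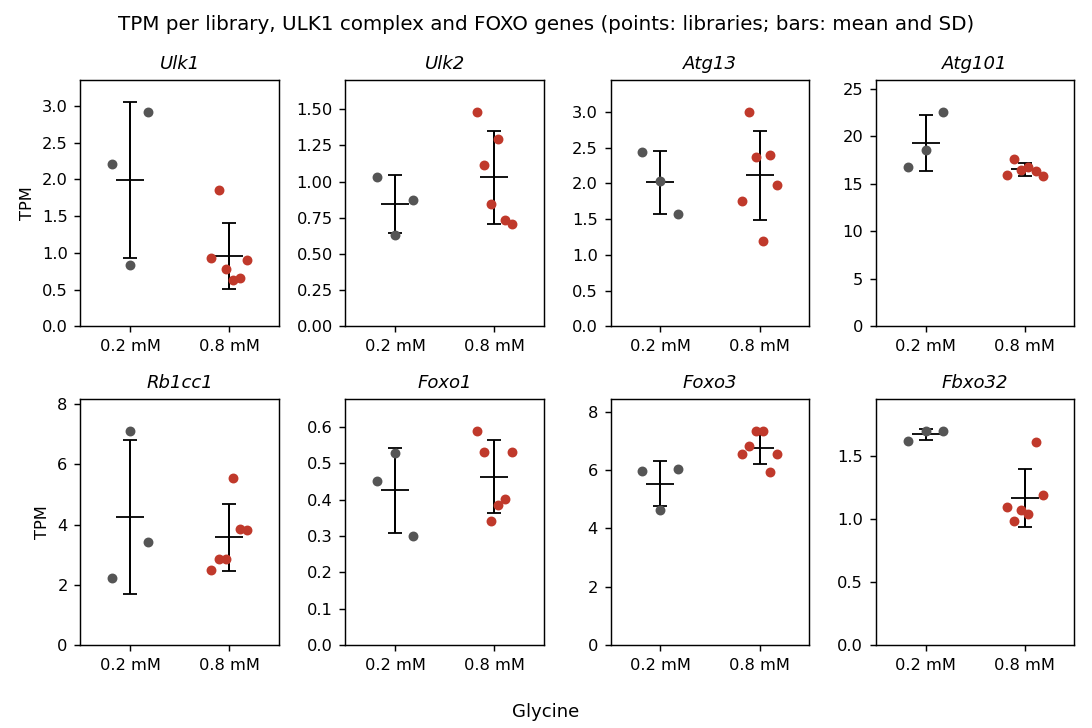
Points are the TPM of single libraries at 0.2 mM (3 libraries) and 0.8 mM glycine (6 libraries) for the 5 genes of the ULK1 complex and for Foxo1, Foxo3 and Fbxo32, on axes from 0, with bars for the mean and SD. The groups overlap in every panel but that of Fbxo32, and none of the 8 genes passed.

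Genes on other steps of the pathway were read from lists compiled from general knowledge, with earlier results of these data known. Over all genes tested, 16.7% rose and 9.81% fell. Of 20 other core autophagy genes tested, 1 rose and 1 fell (5% each), with a median log2 fold change of -0.15. Vamp8, a SNARE of autophagosome fusion, rose from 65.4 ± 5.85 to 84.3 ± 9.09 TPM (limma adjusted p = 0.0209), and did not pass without replicate 1 or 2 at 0.2 mM (0.073 and 0.0932), with no filter on low values, or under median-ratio scaling or quantile normalization (0.0529 and 0.0647). Plekhm1, a lysosomal adaptor that binds ATG8, fell from 1.33 ± 0.174 to 0.672 ± 0.189 TPM (limma adjusted p = 0.0335), and did not pass without replicate 6 at 0.8 mM (0.0531), with a pseudocount of 0.1 (0.0588) or with no filter (0.0614). Plekhm1 was at most 0.866 TPM at 0.8 mM, so it was tested only through its values at 0.2 mM. Of 17 other selective receptors and their partners, 1 rose (5.88%) and 2 fell (11.8%), with a median of -0.09. Rtn3, a receptor of the tubular endoplasmic reticulum, rose from 20.97 ± 2.53 to 26.2 ± 1.26 TPM (limma adjusted p = 0.0236), and did not pass without replicate 2 at 0.2 mM (0.113). Nor did Rtn3 pass under median-ratio scaling (0.0611), quantile normalization (0.0909), after ribosomal RNA genes were left out of the TPM sum (0.0552), or after the 10 most abundant genes were (0.056). Retreg1, its sheet counterpart FAM134B, fell from 2.40 ± 1.21 to 0.928 ± 0.203 TPM (0.0297), a call lost without replicate 1 or 3 at 0.2 mM (0.144 and 0.112) and with no filter (0.0785). Ncoa4, the ferritin receptor, fell from 7.71 ± 0.896 to 4.22 ± 1.56 TPM (0.0372), a call lost without any 1 library at 0.2 mM (0.0675 to 0.124) or replicate 2 or 5 at 0.8 mM (0.0594 and 0.0547), and with no filter (0.0965).

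Over all genes tested 26.6% passed, 16.7% rising and 9.81% falling. Of 20 tested genes known as FOXO targets in muscle, 1 rose (5%) and 4 fell (20%), so 25% passed, and the median was -0.14. Several of them answer to other factors too: Gadd45a, a stress-induced gene, fell from 155 ± 9.02 to 46.2 ± 8.68 TPM (limma adjusted p = 4.28e-06) and Eif4ebp1, an inhibitor of translation, from 150 ± 4.93 to 92.2 ± 6.07 TPM (1.92e-05). Klf15, a metabolic transcription factor, fell from 1.63 ± 0.251 to 0.150 ± 0.149 TPM (0.000218), and Sod2, the mitochondrial superoxide dismutase, from 487 ± 38.4 to 384 ± 20.9 TPM (0.00204). Klf15 was at most 0.322 TPM at 0.8 mM, so it was tested only through its values at 0.2 mM. Sesn3, named after its values were seen as the 1 that rose, went from 0.526 ± 0.211 to 1.71 ± 0.757 TPM (0.0461). At 0.2 mM it was at most 0.668 TPM, so Sesn3 was tested only through its values at 0.8 mM. Its call was lost without any 1 library at 0.2 mM and without any 1 at 0.8 mM other than replicate 4 (0.0645 to 0.158), with no filter (0.117), and under median-ratio scaling (0.0556) or quantile normalization (0.081). Trim63, the ligase MuRF1 usually read beside Fbxo32 and also named after its values were seen, had 0.808 ± 0.450 and 1.61 ± 0.679 TPM (0.142).

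Genes of the TFEB family and its lysosomal targets showed the most uniform direction of these lists. Of 16 tested, 10 fell (62.5%, beside 9.81% of all genes tested) and 0 rose (beside 16.7%). All 16 had a negative fold change, beside 4409 of all 10049 genes tested, and the median was -0.52. Among those that fell, Fnip1 was at most 0.720 TPM at 0.8 mM, so it was tested only through its values at 0.2 mM. Psap, the precursor of the saposins that help to break down sphingolipids, fell from 235 ± 30.7 to 129 ± 5.92 TPM (limma adjusted p = 1.39e-05). The lysosomal hydrolases Hexa, Neu1 and Gla fell from 41.0 ± 2.11 to 24.3 ± 1.83, from 12.0 ± 1.31 to 5.85 ± 0.486 and from 9.66 ± 1.37 to 3.94 ± 0.872 TPM (5.87e-05, 7.80e-05 and 0.000357). Tfe3, a transcription factor of the family named after its values were seen, fell from 8.39 ± 1.83 to 5.08 ± 0.913 TPM (0.0139), and without replicate 2 at 0.2 mM it did not pass (0.0769). Tfeb itself was under the level tested. Lysosomal genes are abundant in macrophages, whose marker Cd68 fell while Lyz2 and Cd14 rose as given above, and their part in these falls was not tested. A further list, of 12 autophagy genes known as targets of ATF4 and CHOP, consisted only of genes already described. Of these, 5 of 12 fell (Sqstm1, Atg12, Map1lc3b, Atg3 and Atg10), which is 41.7% beside 9.81% of all genes tested. In this list 0 rose, beside 16.7% of all genes, and the median was -0.28.

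**Figure D5:**
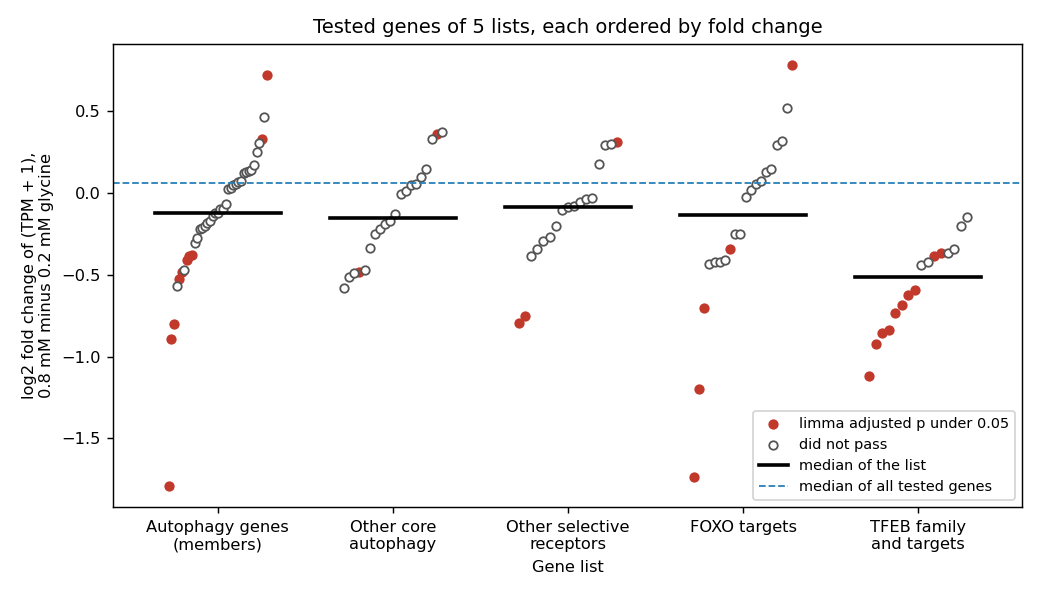
Each point is 1 tested gene, placed by its list and ordered by its log2 fold change on TPM + 1 (positive: higher at 0.8 mM); red points passed at a limma adjusted p under 0.05, black lines are list medians and the dashed line is the median of all tested genes at 0.06. All 16 points of the TFEB list lie below 0, with a median of -0.52, while the medians of the other 4 lists lie between -0.15 and -0.09.

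By level, the 42 genes ran from Foxo1 to Sqstm1 at 0.2 mM. The order of the 5 most abundant at 0.2 mM was Sqstm1, Vmp1, Gabarap, Map1lc3a and Map1lc3b. At 0.8 mM the same 5 led as Gabarap, Vmp1, Map1lc3a, Sqstm1 and Map1lc3b. At 0.2 mM the order of Vmp1 and Gabarap differed between libraries, while Gabarap was above Vmp1 in each of the 6 libraries at 0.8 mM. Gabarapl1 went from rank 9 to rank 16, Wipi1 from rank 15 to rank 9 and Optn from rank 29 to rank 38. Precision was better on the whole for abundant genes, though Fundc1, Bnip3l, Atg4b and Becn1, each with a mean above 5 TPM, had wide intervals: the median SE of the log2 fold change was 0.17 for the 18 tested genes with a mean under 5 TPM, of which 2 passed, and 0.09 for the 11 genes with a mean of at least 20 TPM, of which 5 passed. Those 2 were Optn and Atg10, at differences of -0.80 and -0.53. Most genes of initiation and nucleation belong to the scarcer class.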

How the data were processed

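RNA was measured in 9 libraries of primary mdx myoblasts, 3 at 0.2 mM and 6 at 0.8 mM glycine, grouped by the treatment in the labels. The submitters' processing notes name the aligner HISAT2 2.0.5, the quantifier StringTie 1.3.3, DESeq2 and the build mm10. For the order of these tools, the annotation and any strand setting, nothing is given in the sources used here. Values for 53715 gene IDs were deposited as TPM. Gene positions and exon overlaps were read from GENCODE M21, whose GRCm38 assembly is the same as mm10.

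As TPM hold no counts, groups were compared on log2(TPM + 1) with limma 3.58.1 (R 4.3.3), using eBayes and a mean-variance trend, two-sided, and Benjamini-Hochberg adjustment over the 10049 genes with at least 1 TPM in at least 3 libraries. On data simulated for this comparison with 10049 genes, it called 32.5% of genes at a 1.5-fold change, 71.4% at 2-fold, 94.9% at 4-fold and 0.0863% of unchanged genes. Each of the 10 simulations changed 200 of the 10049 genes, while 26.6% of genes passed in the real data. The adjusted threshold is stricter where fewer genes change, so these rates do not carry over to the real comparison.

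The members, roles, lists and tests were chosen with earlier results of these data known. The text names every member that passed, up to 3 others of each role with the largest fold change, the ATG8, Sqstm1, Foxo and Fbxo32 genes whatever their result, the other members by their values, up to 4 genes that passed with the smallest p of each other list, and up to 3 abundant genes of each marker list; genes outside this rule, such as Myog and Pax7, were picked with their values already known. Alternatives covered the pseudocount, the filter, scaling, the variance model, library weights, each library left out and the library number as a block. Transcripts were compared with all other annotated transcripts for copies of at least 95% identity over at least 100 bases. Plots were made in Python 3.11.15 with matplotlib 3.10.9.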

Additional observations from a re-analysis of the deposited data

Results flagged for a closer look

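In 6 of the 42 autophagy genes, 1 library at 0.8 mM glycine stood apart from the other 5 of its group, with a gap of over 0.625 of the group's whole range. For normally distributed values, chance alone gives such a library in about 1 in 20 groups. Whether TPM follow that distribution was not tested, so 6 of 42 cannot be set against that rate. Ulk1 was at 1.852 TPM in replicate 2, where the others ran from 0.6347 to 0.9282 TPM. Atg14 was at 1.262 TPM in replicate 1, beside 0.5343 to 0.7228 TPM. Tecpr1 was at 2.688 TPM, also in replicate 1, beside 0.6429 to 1.092 TPM. Calcoco1 was at 23.35 TPM in replicate 5, beside 11.98 to 16.09 TPM, and Fbxo32 was at 1.615 TPM in the same library, beside 0.9875 to 1.194 TPM. Atg4d was at 4.248 TPM in replicate 6, beside 1.918 to 2.771 TPM. In all 6 genes the library that stood apart was the highest of its group, and none of the 6 genes passed the test. Groups of 3 libraries, as at 0.2 mM, are too small for this comparison.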

How the results depend on the processing

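The 10 autophagy genes that passed kept their direction under all 23 alternatives that could be fitted, and in 212 of 228 values their side of the threshold. Sqstm1, Gabarapl1, Map1lc3b, Optn and Wipi1 passed under every one run for them, and Optn was not tested at a mean of at least 5 TPM. The number that fell was 8, and 6 to 8 with 1 library left out. The number that rose was 2, and 2 to 3 with 1 library left out. With the library number as a replicate block, fitted on replicates 1 to 3 of each group, 4 fell and 1 rose (over all genes 1782 passed, beside 2669), and the same 6 libraries without the block gave 6 and 2. Atg3, Atg10, Atg12, Vmp1 and Vcp did not pass with the block, nor did Atg3 and Atg10 on its 6 libraries without it. Deviations from the group means correlated at 0.0229, 0.0300 and 0.0812 between same-numbered libraries. Between libraries of different number they correlated at -0.104 to 0.0799. So few libraries cannot decide whether equal numbers mark a pairing, and the labels do not state one. Genes over the whole table that passed ranged from 2032 to 2573 with 1 library left out.

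Direction turned only in genes that did not pass. With the block, and on its 6 libraries without it, fold changes were -0.054 for Atg2b, -0.014 for Atg16l1, -0.011 for Calcoco1, -0.067 for Bnip3l, 0.013 for Atg4b and -0.16 for Atg4d. Median-ratio scaling gave -0.024 for Atg13, -0.028 for Bnip3l and -0.037 for Atg4d. Quantile normalization gave -0.045 for Atg13, -0.029 for Bnip3l, -0.040 for Atg4d, -0.015 for Atg2b, -0.0066 for Pik3r4 and -0.061 for Tecpr1. Atg4d was at -0.0053 without ribosomal RNA genes and at -0.0092 without the 10 most abundant genes. With 1 library left out, the ranges were -0.11 to 0.29 for Atg2b, -0.030 to 0.23 for Atg16l1, -0.21 to 0.29 for Bnip3l, -0.023 to 0.33 for Fundc1, -0.12 to 0.13 for Tecpr1, -0.078 to 0.13 for Atg13, -0.42 to 0.24 for Rb1cc1, -0.27 to 0.090 for Becn1, -0.044 to 0.21 for Pik3r4, -0.18 to 0.055 for Atg4b and -0.078 to 0.091 for Atg4d. The cause was not tested. The depth of the libraries is unknown, and the SE of a fold change ran from 0.06 for Map1lc3a to 0.34 for Fundc1.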
